A study of Homo sapiens with 8 samples.

Results

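The genes described here are 10 transcription regulators of the circadian clock: the repressors PER1, PER2, PER3, CRY1 and CRY2, the nuclear receptors NR1D1 and NR1D2, and the D-box binding factors DBP, TEF and NFIL3. They were chosen by name, as the rows of the deposited count table whose Ensembl identifier carries one of these symbols in GENCODE 29, and all 10 were found among 60609 identifiers and passed the filter on low counts with 15751 genes in all. The 8 RNA-seq libraries came from the colon cancer cell line HCT116, an established human line. The parental group (4 libraries) has the GNAS genotype wt and the treatment label Ctrl, and the GNAS R201C/+ group (4 libraries) is a CRISPR-Cas9 derivative that is heterozygous for R201C. Both groups grew in DMEM/F12 with fetal bovine serum. Whether the derivative is 1 clone and whether replicates were separate cultures are facts not given in the sources used here. Nor are the time of harvest and whether cells were synchronised. The p-values therefore set the group difference only against the spread of these libraries, which may be technical. Effects of a clone and of the genotype cannot be told apart. In bulk RNA, fewer cells with a transcript and less transcript per cell cannot be told apart either.

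In the mammalian clock, CLOCK or NPAS2 pairs with ARNTL (BMAL1) and binds E-box sequences in the genes of the PER and CRY proteins, which in turn inhibit that pair. The receptors NR1D1 and NR1D2 (REV-ERB alpha and beta) repress ARNTL, and ROR receptors activate it from the same response elements. DBP and TEF are activators of the PAR-bZIP family that bind D-box sequences, and NFIL3 (E4BP4) represses from the same sequences. GNAS encodes the G protein subunit that stimulates cyclic AMP production, cyclic AMP activates the factor CREB, and PER1 is a known CREB target. Whether this route joins the edited gene to the clock genes in these cells was not tested.

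DBP rose and NFIL3 fell in GNAS R201C/+ cells, and the other members moved by 10.7% or less. DBP was 1.40-fold higher and NFIL3 1.30-fold lower, so the activator and the repressor of D-box sequences went in opposite directions. PER1, PER3, NR1D1, NR1D2 and TEF rose by 6.61% to 10.7%, and PER2, CRY1 and CRY2 did not pass the test. In all, 6 of 10 members were called higher, against 24.1% of tested genes, and 1 was called lower, against 24.0%. Calls were made by edgeR's quasi-likelihood test where the adjusted p was under 0.05, and 48.1% of tested genes were called in either direction. The median size of the members' log2 fold changes was 0.12, and that of all tested genes was 0.12 as well. Groups without overlap were seen for 4 members in the upward direction and 1 in the downward direction, against 20.7% and 20.8% of tested genes.

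Promoter sequence is shown for the 2 members that changed most, DBP and NFIL3, and for 2 that rose less, PER1 and NR1D2. Each window runs from 250 bases before to 50 bases after a RefSeq transcript start (build GRCh38.p14), written 5′ to 3′ along the gene. Capitals mark CACGTG (the E-box), TGACG (the core of the CREB site), TTANNTAA (a relaxed D-box) and AGGTCA (the core site of NR1D and ROR receptors), each on either strand.
DBP (chr19:48637330-48637629, minus strand): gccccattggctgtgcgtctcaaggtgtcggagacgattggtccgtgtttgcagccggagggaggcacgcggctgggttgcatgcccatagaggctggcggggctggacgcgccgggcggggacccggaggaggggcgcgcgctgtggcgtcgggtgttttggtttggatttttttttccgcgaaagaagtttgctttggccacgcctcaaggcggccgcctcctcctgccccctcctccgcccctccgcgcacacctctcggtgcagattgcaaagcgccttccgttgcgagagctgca
NFIL3 (chr9:91423783-91424082, minus strand): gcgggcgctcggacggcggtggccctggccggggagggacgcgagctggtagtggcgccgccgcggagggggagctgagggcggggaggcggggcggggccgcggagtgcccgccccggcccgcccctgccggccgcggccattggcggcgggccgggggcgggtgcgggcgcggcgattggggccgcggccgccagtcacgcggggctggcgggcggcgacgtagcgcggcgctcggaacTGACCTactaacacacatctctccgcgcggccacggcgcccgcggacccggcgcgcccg
PER1 (chr17:8152355-8152654, minus strand): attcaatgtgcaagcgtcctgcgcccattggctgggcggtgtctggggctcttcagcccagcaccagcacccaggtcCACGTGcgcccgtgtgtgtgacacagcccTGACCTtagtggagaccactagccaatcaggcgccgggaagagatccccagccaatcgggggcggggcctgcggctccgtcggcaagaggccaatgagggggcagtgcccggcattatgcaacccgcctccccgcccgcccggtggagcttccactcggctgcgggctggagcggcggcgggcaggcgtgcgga
NR1D2 (chr3:23945871-23946170, plus strand): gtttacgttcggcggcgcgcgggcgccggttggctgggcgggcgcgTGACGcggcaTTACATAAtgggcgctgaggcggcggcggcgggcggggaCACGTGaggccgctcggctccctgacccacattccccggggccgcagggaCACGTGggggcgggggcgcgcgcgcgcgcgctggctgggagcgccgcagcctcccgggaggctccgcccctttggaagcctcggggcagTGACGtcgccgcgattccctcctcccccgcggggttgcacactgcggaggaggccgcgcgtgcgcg
The DBP window held none of these motifs, and the NFIL3 window held a single AGGTCA on the opposite strand. The PER1 window held 1 CACGTG and 1 AGGTCA, and the NR1D2 window shown held 2 CACGTG, 2 TGACG and 1 TTANNTAA. A different NR1D2 window, not shown, held 1 TGACG and none of the other marked motifs.

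All 10 members had RefSeq windows, 15 in total, since some genes have more than 1 start. The complete CREB site TGACGTCA was in 0 of 15 windows, and in 1.85% of the 35116 windows of the same length over all genes. Its core TGACG, which lies within that site, was in 7 of 15 windows, from CRY1, CRY2, NR1D2, PER2 and the other window of NFIL3, against 24.6% of all windows. CACGTG was in 4 of 15, from PER1, TEF and NR1D2, against 7.26%. TTANNTAA was in 4 of 15, from PER2, PER3, TEF and NR1D2, against 5.63%, and its stricter form TTATGTAA, which every such match also counts under TTANNTAA, was in 2 of 15 against 0.886%. AGGTCA was in 4 of 15, from CRY2, PER1 and NFIL3, against 13.8%. The NR1D1 window, like that of DBP, held none. A match is a description of letters, and windows without one were not searched farther out.

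The libraries were deep enough to measure every member. They held 42584988 to 50986733 counts, and between 413 and 7274 reads fell on a member in a library, which gives a counting error of 1.17% to 4.92%. GNAS itself was at 677 ± 16.8 CPM (SD, n = 4) in parental cells and at 711 ± 13.2 CPM in the derivative, values that carry no allele. It was called higher, by 0.07 on the log2 scale (edgeR adjusted p = 0.00412), though its groups overlapped. Levels are given as CPM, a read count relative to the TMM-adjusted total of its library. Of 7 colon epithelial markers, EPCAM, KRT8, KRT18, KRT19, CDH1 and CDX2 were tested, of which 4 rose and 1, CDX2, fell, and VIL1 had at most 10 reads in a library. Of 14 leukocyte, fibroblast and endothelial markers, 3 were tested, 0 were called by edgeR and 0 had an unadjusted p under 0.05, 4 were at 0 in all libraries, and their summed level was 29.7 to 33.1 CPM in parental and 30.3 to 32.5 CPM in GNAS R201C/+ libraries.

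**Figure D1:**
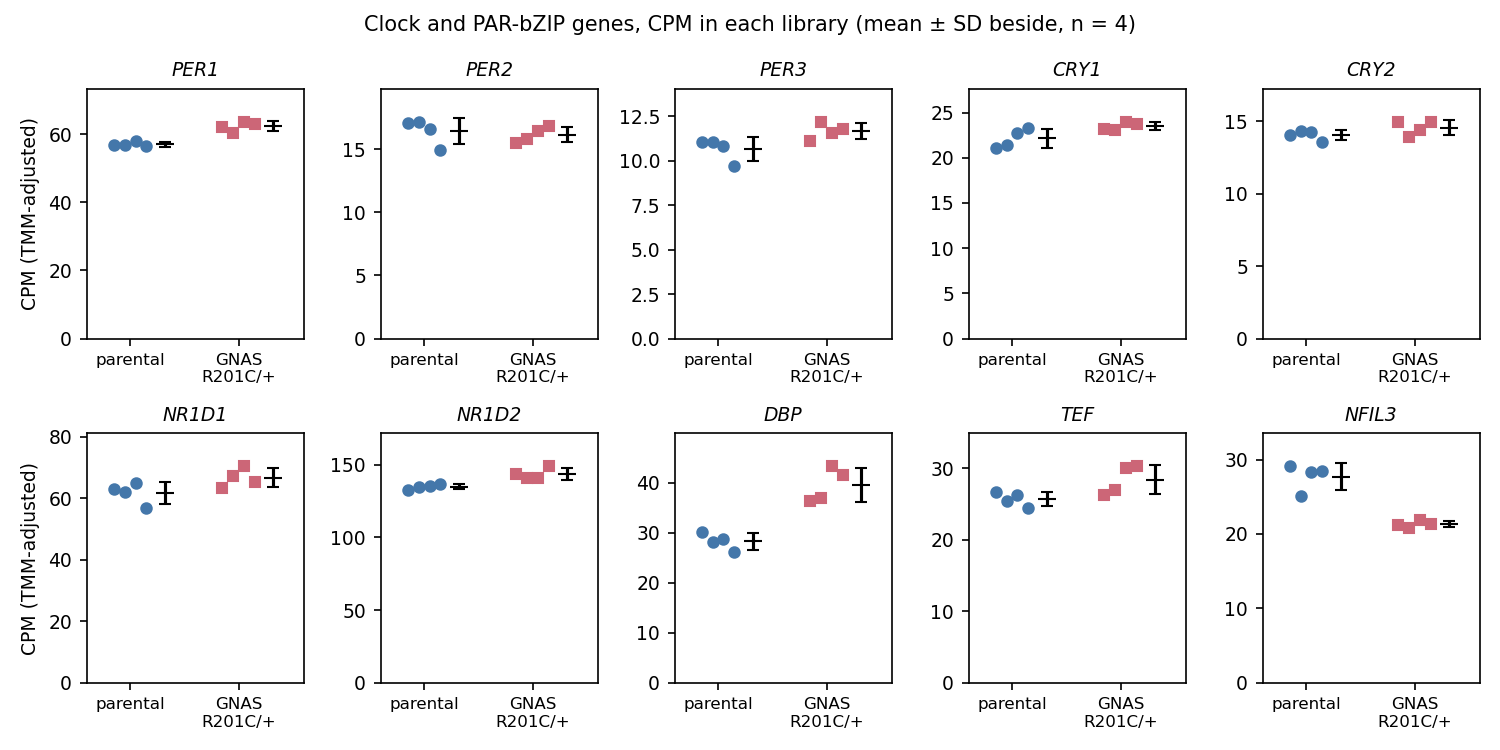
CPM of each member in each library (blue circles, parental; red squares, GNAS R201C/+), with the mean and SD of the 4 libraries beside each group; every axis starts at 0. DBP lies higher and NFIL3 lower in all 4 GNAS R201C/+ libraries, while PER2, CRY1, CRY2, NR1D1 and TEF overlap between the groups.

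The levels of the members differed far more from each other than between the groups. Exonic length here joins the exons of all annotated transcripts of a gene, 6544 bases for DBP and 2085 for NFIL3. It is not the length of the transcripts made in these cells, so the order of genes depends on the annotation. Divided by this length, NR1D2 and NR1D1 came first, at 23.1 ± 0.290 and 22.3 ± 1.27 CPM per kb in parental libraries (SD, n = 4). These neighbours overlapped. NFIL3 followed at 13.3 ± 0.875 and PER1 at 8.16 ± 0.0998 CPM per kb, neither overlapping its neighbours. TEF came next at 5.45 ± 0.205 CPM per kb. CRY1 and DBP, at 4.38 ± 0.207 and 4.32 ± 0.252 CPM per kb, could not be ordered. PER2 at 2.39 ± 0.151 and CRY2 at 2.27 ± 0.0572 CPM per kb overlapped as well, and PER3 was lowest at 1.32 ± 0.0815 CPM per kb. The span from the highest to the lowest mean was 17.6-fold in parental and 17.1-fold in GNAS R201C/+ libraries.

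**Figure D2:**
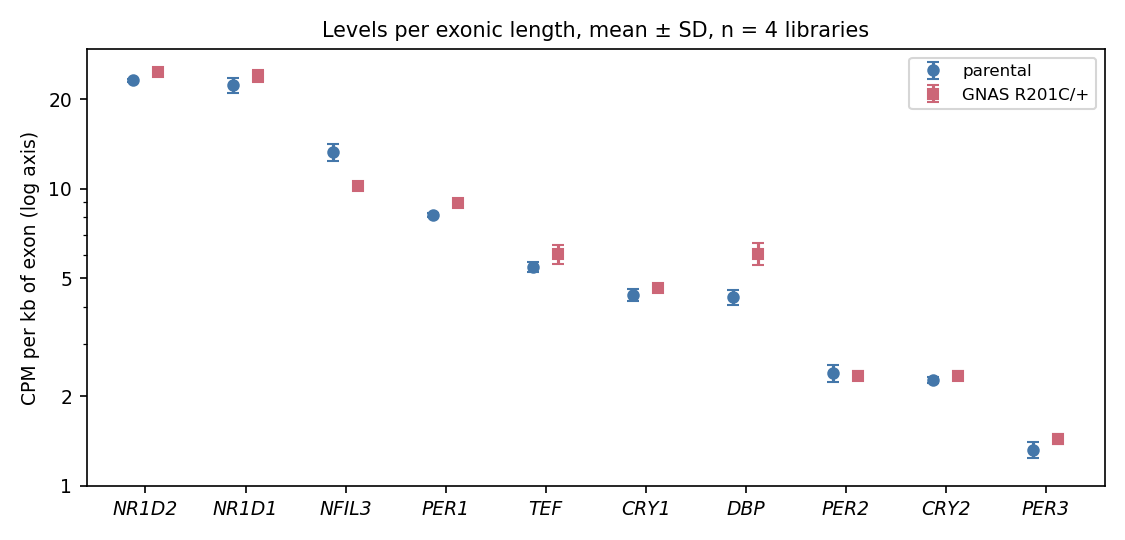
Mean level of each member per kb of exon, in CPM on a log axis, with the SD over 4 libraries, in the order of the parental means (blue circles, parental; red squares, GNAS R201C/+). NR1D2 and NR1D1 lead in both groups and PER3 is lowest, while DBP moves from 4.32 to 6.05 CPM per kb and NFIL3 from 13.3 to 10.2 CPM per kb.

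In GNAS R201C/+ libraries the order changed at DBP. It stood at 6.05 ± 0.529 CPM per kb, level with TEF at 6.03 ± 0.441 and above CRY1 at 4.65 ± 0.0835 CPM per kb, from which it had not been separable in parental cells. NFIL3 kept the third place at 10.2 ± 0.215 CPM per kb, now closer to PER1 at 8.92 ± 0.210 CPM per kb, though single libraries of these genes did not overlap.

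DBP, an activator named for its binding to the D site of the albumin promoter, lies on chromosome 19 (GRCh38, 48630030 to 48637438, minus strand, ENSG00000105516). It was at 30.1, 28.1, 28.8 and 26.1 CPM in parental replicates 1 to 4. In GNAS R201C/+ replicates 1 to 4 it was at 36.4, 36.9, 43.4 and 41.6 CPM. All 4 edited libraries lay above all parental ones, and replicates 3 and 4 stood above 1 and 2. This was a log2 fold change of 0.48 ± 0.06 (SE; edgeR adjusted p = 9.02e-05), and its 95% interval in fold was 1.27 to 1.54. The size of this change exceeded that of 91.5% of tested genes. DBP was also the most variable member, with a biological coefficient of variation of 5.67% against 1.92% to 3.24% for the others and a median of 2.68% over tested genes.

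Reads of DBP may include some of SPHK2, a sphingosine kinase gene on the opposite strand, because they share 661 exonic bases and the strand setting of the counting is not given in the sources used here. SPHK2 went from 15.5 ± 0.295 to 17.1 ± 0.606 CPM, a rise of 0.14 on the log2 scale (edgeR adjusted p = 0.00703). The part of shared reads in the DBP result was not tested.

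TEF, the other activator of the family among the members, lies on chromosome 22 (41367333 to 41399326, plus strand, ENSG00000167074). Its parental libraries were at 26.6, 25.4, 26.2 and 24.4 CPM. The GNAS R201C/+ libraries were at 26.3, 27.0, 30.1 and 30.3 CPM, so replicate 1 fell within the parental range and replicates 2, 3 and 4 were above it. This was a log2 fold change of 0.15 ± 0.04 (SE; edgeR adjusted p = 0.00423). As for DBP, replicates 3 and 4 of the edited cells were the highest.

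NFIL3, the D-box repressor, lies on chromosome 9 (91409045 to 91423862, minus strand, ENSG00000165030) and shares no exonic base with another gene. It was at 29.2, 25.1, 28.3 and 28.4 CPM in parental libraries. In GNAS R201C/+ libraries it was at 21.3, 20.8, 21.9 and 21.4 CPM. The groups did not overlap, and the edited libraries lay closer together than the parental ones, of which replicate 2 was lowest. This was a log2 fold change of -0.38 ± 0.04 (SE; edgeR adjusted p = 2.70e-10), and the size of the change exceeded that of 86.3% of tested genes.

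Ratios within a library do not depend on its scaling, and here they are given as values with no test. The log2 ratio of NFIL3 to DBP reads was -0.03 ± 0.12 in parental and -0.89 ± 0.10 in GNAS R201C/+ libraries (SD, n = 4), a 1.81-fold shift towards the activator, and the groups did not overlap. The NFIL3 to TEF ratio went from 0.11 ± 0.10 to -0.41 ± 0.09, also without overlap. DBP rose more than its relative TEF: their log2 ratio went from 0.14 ± 0.03 to 0.48 ± 0.04, with 0.10 to 0.18 in parental and 0.45 to 0.53 in edited libraries. These ratios follow from the changes of the single genes and are not further evidence of them.

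**Figure D3:**
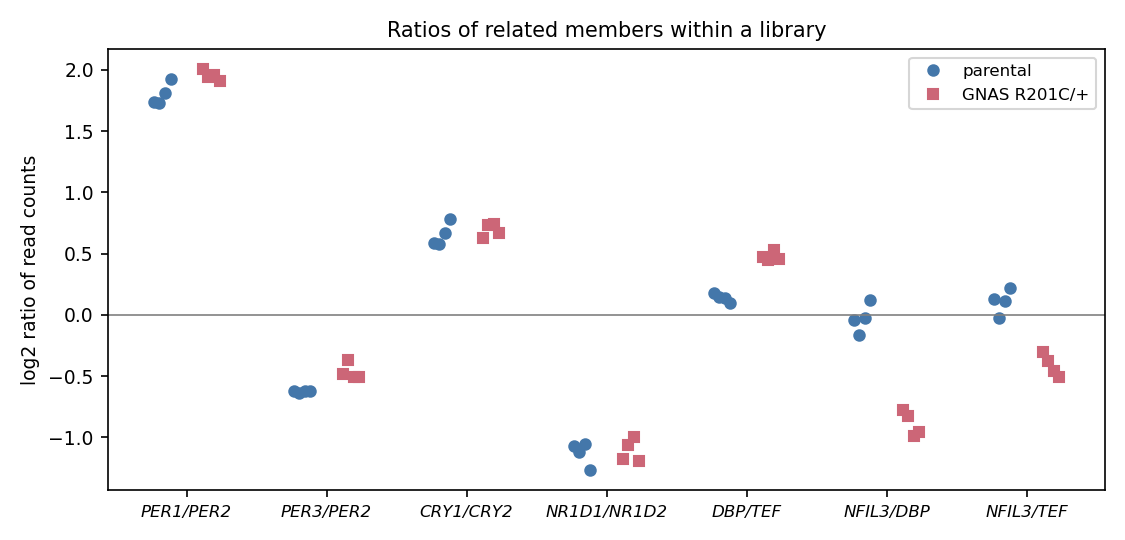
Log2 ratio of the read counts of related members in each library (blue circles, parental; red squares, GNAS R201C/+). The NFIL3 to DBP ratio lies at -0.17 to 0.12 in parental and at -0.99 to -0.78 in GNAS R201C/+ libraries, while the CRY1 to CRY2 and NR1D1 to NR1D2 ratios overlap.

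Of the PER genes, which encode the repressors that carry CRY proteins into the nucleus, PER1 and PER3 rose and PER2 did not pass. PER1 (chromosome 17, 8140472 to 8156506, minus strand, ENSG00000179094) was at 56.8, 56.9, 58.1 and 56.6 CPM in parental libraries. It was at 62.3, 60.4, 63.8 and 63.2 CPM in GNAS R201C/+ libraries, all above the parental range. This was a log2 fold change of 0.13 ± 0.03 (SE; edgeR adjusted p = 7.18e-05), a 1.09-fold difference whose 95% interval ran from 1.05 to 1.13.

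PER3 (chromosome 1, 7784320 to 7845177, plus strand, ENSG00000049246) was at 11.1, 11.1, 10.8 and 9.69 CPM in parental libraries. In GNAS R201C/+ libraries it was at 11.1, 12.2, 11.5 and 11.8 CPM. The groups were separate by a narrow margin, since replicate 1 of the edited cells stood just above the highest parental library. This was a log2 fold change of 0.13 ± 0.05 (SE; edgeR adjusted p = 0.0449), and this call was not stable: it was lost in 10 of 16 alternatives, with adjusted p-values from 0.0308 to 0.224. Without parental replicate 4 the log2 fold change was 0.08 (adjusted p = 0.224), and with DESeq2 the adjusted p was 0.0918. PER3 shares 868 exonic bases with UTS2 and 482 with Z98884.1 on the opposite strand, of which UTS2 was at 1.22 ± 0.0579 and 1.43 ± 0.0926 CPM and the other had no read.

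PER2 (chromosome 2, 238244038 to 238290102, minus strand, ENSG00000132326) was at 17.1, 17.2, 16.6 and 14.9 CPM in parental and at 15.5, 15.8, 16.5 and 16.8 CPM in GNAS R201C/+ libraries. The edited libraries lay inside the parental range. Their difference was -0.03 on the log2 scale (edgeR adjusted p = 0.644), and the 95% interval in fold was 0.919 to 1.05, so a rise of the size seen for PER1 lay outside it. The log2 ratio of PER3 to PER2 was -0.63 ± 0.008 in parental and -0.47 ± 0.07 in edited libraries without overlap, while that of PER1 to PER2 overlapped, at 1.80 ± 0.09 and 1.95 ± 0.04.

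Neither CRY gene passed. CRY1 and CRY2 encode the cryptochromes, the direct inhibitors of the CLOCK and ARNTL pair. CRY1 (chromosome 12, 106991364 to 107093829, minus strand, ENSG00000008405) was at 21.1, 21.4, 22.7 and 23.3 CPM in parental and at 23.2, 23.1, 24.0 and 23.7 CPM in GNAS R201C/+ libraries, where only parental replicate 4 reached into the edited range. The change was 0.09 on the log2 scale (edgeR adjusted p = 0.0549). It passed with a filter of 1 CPM in 4 libraries (adjusted p = 0.0458) and without parental replicate 4 (adjusted p = 0.0259), and its adjusted p lay between 0.0259 and 0.195 in the 16 alternatives.

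CRY2 (chromosome 11, 45847118 to 45883248, plus strand, ENSG00000121671) was at 14.1, 14.3, 14.3 and 13.6 CPM in parental and at 15.0, 13.9, 14.4 and 15.0 CPM in edited libraries. These overlapped, with a log2 fold change of 0.05 (edgeR adjusted p = 0.394) and a 95% interval in fold of 0.971 to 1.10. The log2 ratio of CRY1 to CRY2 was 0.65 ± 0.09 and 0.69 ± 0.05 in the 2 groups.

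Both NR1D genes rose slightly. NR1D2 (chromosome 3, 23945260 to 23980618, plus strand, ENSG00000174738), the most abundant member, was at 133, 135, 135 and 137 CPM in parental libraries. It was at 144, 141, 141 and 149 CPM in GNAS R201C/+ libraries, without overlap. This was a log2 fold change of 0.09 ± 0.02 (SE; edgeR adjusted p = 0.000584), a 1.07-fold rise.

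NR1D1 (chromosome 17, 40092787 to 40100725, minus strand, ENSG00000126368) was at 63.1, 62.0, 65.0 and 56.8 CPM in parental libraries. It was at 63.4, 67.3, 70.6 and 65.2 CPM in edited libraries, where replicate 1 lay within the parental range. It had a log2 fold change of 0.11 ± 0.04 (SE; edgeR adjusted p = 0.0200). The call ended without parental replicate 2 (adjusted p = 0.0511), without parental replicate 4 (log2 fold change 0.07, adjusted p = 0.0708) and when GNAS R201C/+ replicate 3 was left out (adjusted p = 0.0522). NR1D1 overlaps the thyroid hormone receptor gene THRA tail to tail, with 263 shared exonic bases on opposite strands, and THRA went from 50.2 ± 1.83 to 54.0 ± 1.76 CPM, a rise of 0.10 on the log2 scale (edgeR adjusted p = 0.00327). Shared reads were not tested as part of the NR1D1 result. The log2 ratio of NR1D1 to NR1D2 was -1.13 ± 0.10 in parental and -1.11 ± 0.10 in edited libraries.

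Remaining exonic overlaps of members involved nearly unread genes. PER1 shares 30 bases with AC129492.3 and 78 with the microRNA gene MIR6883 on the same strand, CRY1 shares 94 with AC078929.1 and PER2 shares 188 with AC012485.1 on the opposite strand. Of these only AC012485.1 had a read.

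**Figure D4:**
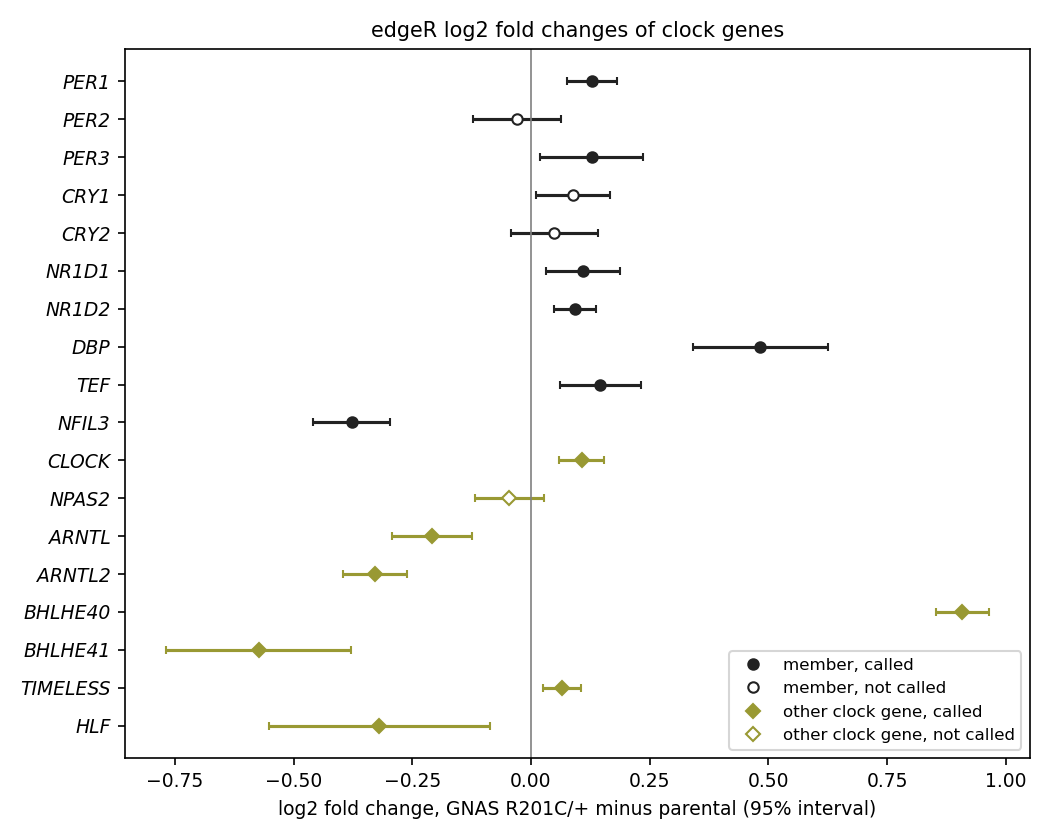
Log2 fold change of the members (black circles) and of other tested clock genes (olive diamonds), GNAS R201C/+ minus parental, with 95% intervals; filled symbols passed at an edgeR adjusted p under 0.05 and open symbols did not. Most members lie within 0.15 of zero, DBP and NFIL3 lie apart on either side, and BHLHE40 and BHLHE41 lie farther out than any member.

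The genes that drive the members moved in both directions. Of 4 tested clock activator genes given here, 1 rose and 2 fell. Their median log2 change was -0.13, beside 0.002 over all tested genes. CLOCK rose from 115 ± 2.86 to 123 ± 2.98 CPM (edgeR adjusted p = 0.000179). Its partner ARNTL was at 20.3, 19.8, 19.5 and 19.1 CPM in parental and at 17.1, 17.5, 16.0 and 17.6 CPM in edited libraries, a fall by 0.21 on the log2 scale (adjusted p = 5.39e-05). The paralog ARNTL2 fell from 39.2 ± 1.12 to 31.2 ± 1.24 CPM (adjusted p = 6.33e-11). NPAS2, which can replace CLOCK, had a log2 fold change of -0.05 (adjusted p = 0.312).

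Of 5 other clock repressors and PAR-bZIP genes, 4 were tested, of which 2 rose and 2 fell, and the median log2 change was -0.13. BHLHE40 (DEC1), an E-box repressor, was at 38.5, 38.9, 37.4 and 38.1 CPM in parental libraries and at 70.2, 71.7, 74.1 and 70.9 CPM in GNAS R201C/+ libraries. That 1.88-fold rise (edgeR adjusted p = 6.30e-28) was larger than the change of any of the 10 members. Its paralog BHLHE41 (DEC2) went the other way, from 3.38 ± 0.113 to 2.27 ± 0.148 CPM (adjusted p = 3.79e-06), and it shares 162 exonic bases with SSPN on the opposite strand. HLF, the remaining PAR-bZIP gene, fell from 2.24 ± 0.283 to 1.79 ± 0.0716 CPM (adjusted p = 0.0204), though its groups overlapped. By these calls the family's members differed in direction: DBP and TEF rose while HLF fell. The HLF call ended with DESeq2 (adjusted p = 0.0608), without parental replicate 1 (adjusted p = 0.0915) and without parental replicate 3 (adjusted p = 0.0655). TIMELESS, a replication fork gene related to a fly clock gene, rose by 0.06 on the log2 scale (adjusted p = 0.00672), and CIART had at most 13 reads and was not tested.

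Genes that act on PER and CRY proteins changed by small amounts. Of 10 tested kinase, deubiquitinase and ubiquitin ligase genes given here, 5 fell by edgeR, 0 rose by edgeR, DESeq2 or limma-voom, 1 was higher at an unadjusted edgeR p under 0.05, and the median log2 change was -0.05. CSNK1E, a casein kinase that marks PER proteins for breakdown, fell by 0.15 on the log2 scale (edgeR adjusted p = 1.91e-06) and is uncertain, as it shares 1316 exonic bases with the readthrough gene TPTEP2-CSNK1E. CSNK2A1, a casein kinase subunit gene, went from 279 ± 3.08 to 253 ± 2.11 CPM and USP7, a deubiquitinase gene, from 276 ± 3.48 to 250.4 ± 3.80 CPM, falls by 0.14 each on the log2 scale. CSNK1A1, another casein kinase gene, fell by 0.09 (adjusted p = 0.000542) and is uncertain as well, since it shares 2886 exonic bases with AC021078.1 on the same strand.

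Of 13 tested genes listed as candidate clock outputs, 5 rose, 3 fell and 5 did not pass, with a median log2 change of 0.02. ID2, a helix-loop-helix inhibitor, rose from 83.8 ± 1.60 to 119 ± 6.13 CPM (edgeR adjusted p = 4.99e-16). POR, the electron donor of cytochrome P450 enzymes, rose by 0.28 on the log2 scale. LPIN1, a phosphatidate phosphatase gene, fell by 0.35, and WEE1, a kinase that restrains mitotic entry, fell by 0.19.

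Inputs to PER1 and PER2 other than cyclic AMP include glucocorticoids and serum, and lists for both were read beside the members. Of 7 tested glucocorticoid response genes, 3 rose and 4 fell, and the median log2 change was -0.21. FKBP5 fell by 0.30 (edgeR adjusted p = 4.56e-15) and ERRFI1 by 0.21, while CEBPD rose by 0.40 and SGK1 by 0.57 on the log2 scale. Of 11 tested serum immediate early genes, 5 rose and 3 fell, and the median log2 change was 0.16. FOS rose by 0.47 (adjusted p = 6.59e-07) and JUNB by 0.41, whereas FOSL1 fell by 0.52 and SRF by 0.13. JUNB shares 259 exonic bases with HOOK2 on the opposite strand. The part of these signals in the levels of the members was not tested.

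Several of these other genes also share exonic bases with a neighbour, so their values carry the same limit as that of DBP. On the opposite strand, CLOCK shares 76 bases with TMEM165 and 27 with AC024243.1, NPAS2 shares 748 with AC016738.1 and 35 with AC016738.2, and ARNTL2 shares 73 with ARNTL2-AS1. BHLHE40 shares 4 with BHLHE40-AS1, ID2 shares 38 with ID2-AS1, LPIN1 shares 115 with AC012456.2, ERRFI1 shares 155 with AL034417.4 and POR shares 19 with TMEM120A. On the same strand, POR shares 73 with the microRNA gene MIR4651 and WEE1 shares 104 with RF01210, a small nucleolar RNA gene. Among the colon epithelial markers, KRT8 and KRT18 share 525 bases with each other, CDH1 shares 347 with AC099314.1 and VIL1 shares 3045 with USP37, all on opposite strands. The part of shared reads in these values was not tested.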

How the data were processed

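RNA-seq read counts were measured in 4 parental and 4 GNAS R201C/+ libraries of HCT116. The deposited table holds raw counts per Ensembl gene, made by the authors on build GRCh38.p12 with tools that include STAR and featureCounts, per the submitters' processing notes. The annotation release, tool versions, strand setting and handling of multi-mapped reads were not given in the sources used here. The library kit was directional, per the labels' protocols.

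Symbols, positions and exonic lengths came from GENCODE 29 (58457 of 60609 identifiers matched without their version). In R 4.3.3, edgeR 4.0.16 kept genes by filterByExpr (minimum count 10, minimum total 15), scaled with TMM and fitted group alone with robust quasi-likelihood. Benjamini-Hochberg adjustment ran over all 15751 tested genes. Standard errors are approximate, the size of each log2 fold change over the root of its F statistic, and 95% intervals use the fit's degrees of freedom. Alternatives were DESeq2 1.42.0, limma-voom (limma 3.58.1), 3 other scalings, 2 other filters, a replicate block and each library left out. Log values had a prior count of 2.

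Members and lists were chosen with earlier results of these data known, so list counts carry no test. Some listed genes are not reported here and enter no list count. Named were all members, every tested gene of the activator and repressor lists, up to 4 called genes with the smallest adjusted p from each other clock or input list, genes sharing exonic bases with a member, and 3 genes whose profile is closest to that of the most changed member. For the other listed genes with values in the text, and the markers named, genes that share their exonic bases are named as limits. Marker lists only check the cell type. Replicate pairs differed by more than sampling noise, with a chi-square per degree of freedom of 1.62 to 4.11, so none was counted as a duplicate. Counting errors cover counting only.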

Additional observations from a re-analysis of the deposited data

Results flagged for a closer look

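A sample far from the others of its group was found in 3 of 94 groups of 4 libraries examined, and chance alone gives about 1 in 20. No member was among them. POR was at 135 CPM in GNAS R201C/+ replicate 1, below the 141 to 142 CPM of the other 3 libraries. CEBPD was at 6.08 CPM in parental replicate 4, below the 6.89 to 7.03 CPM of the others, and at 8.04 CPM in GNAS R201C/+ replicate 4, below the 9.14 to 9.25 CPM of the others. All 3 values were low relative to their group, and both genes rose in the fits that left out each library in turn.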

How the results depend on the processing

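Over 16 alternatives, 145 of 160 member values kept their direction and side of the threshold, 0 reversed, and the 15 that changed side belong to PER3, CRY1 and NR1D1. PER1, NR1D2, DBP, TEF and NFIL3 were called in all 16, with log2 fold changes of 0.44 to 0.52 for DBP and -0.42 to -0.35 for NFIL3. Members called higher numbered 4 to 7, and 1 was called lower in each. Calls over all genes moved as well, from 6633 with DESeq2 to 7611 with library totals only, in either direction together. Of these calls, 47.7% (library totals only) to 50.8% (without GNAS R201C/+ replicate 3) were higher. The number of tested genes ran from 12764 to 32806 with the filter used. Whether the members' range differs from this general movement was not tested. PER3 also missed with limma-voom (adjusted p = 0.0504), library totals only (0.0593) and no filter on low counts (0.0792). Of 480 values of the other 30 named genes, 477 kept their side, and HLF lost its call in 3.

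List counts moved by over 1.5 times in these cases. Other clock repressors and PAR-bZIP genes called lower were 1 with DESeq2, and 1 to 2 when single libraries were left out. Kinases and ubiquitin ligase parts called higher were 0 to 1 when single libraries were left out. The colon epithelial markers called lower went from 1 to 0 with DESeq2, without a filter on low counts and with the replicate block, and were 0 to 1 when single libraries were left out. Other cell type markers called higher went from 0 to 1 with no filter. The cause was not tested.

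Replicate numbers did not pair the libraries: same-numbered deviations correlated at -0.0470 to 0.0538, and 2 of 8 libraries correlated best with their own number. With the replicate block, 7413 genes were called in place of 7577, 5 members were higher and 1 lower, and PER3 had a log2 fold change of 0.13 (adjusted p = 0.0528).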

Other observations

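The tested genes whose profile over the 8 libraries came closest to that of DBP were RAB26, a vesicle GTPase gene, MARCH2, a membrane ubiquitin ligase gene, and ID1, a helix-loop-helix inhibitor like ID2. Likeness was the root mean square difference of centred log2 CPM, which was 0.0423, 0.0440 and 0.0474. RAB26 rose from 28.4 ± 1.11 to 38.9 ± 3.90 CPM (edgeR adjusted p = 0.000441), MARCH2 from 14.5 ± 0.710 to 20.5 ± 1.68 CPM (adjusted p = 3.73e-10) and ID1 from 282 ± 9.29 to 392 ± 20.1 CPM (adjusted p = 1.31e-07). None of these 3 genes shares an exonic base with another gene in GENCODE 29. Rises close to that of DBP follow from choosing genes by this likeness, so their adjusted p-values are no separate evidence. The list is a description of these libraries.

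Parental replicate 4 held the lowest CPM of 7 of 10 members (PER1, PER2, PER3, CRY2, NR1D1, DBP and TEF) and the highest of 2 (CRY1 and NR1D2). In the edited group, replicate 1 was lowest for 5 (PER2, PER3, NR1D1, DBP and TEF) and replicate 3 highest for 5 (PER1, CRY1, NR1D1, DBP and NFIL3). Parental replicate 4 also had the smallest library of the 8, at 42584988 counts. Parental replicate 3, at 42951435 counts, held the lowest CPM of 0 members and the highest of 2. The part of library size in the pattern was not tested. This pattern was noticed after the values were seen.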
